A study of Mus musculus with 16 samples.

Results

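Adipokines are proteins that fat tissue secretes into the blood. The 9 genes described here, Adipoq, Lep, Retn, Cfd, Rbp4, Nampt, Agt, Angptl4 and Apln, were chosen by name as well-known members of this class, and all 9 were found among the 17883 genes of the expression matrix. Their input RNA, their recovery with an antibody against N6-methyladenosine (m6A, a methyl mark on adenosines of mRNA) and their ribosome footprints (the fragments that ribosomes protect from nuclease) were followed through mouse adipose tissue, with 2 libraries in each of 8 groups. The cKO cold mice carried METTL3 flox/flox with Adipoq-Cre +/-, and were housed singly at 4 °C for 7 days. The WT cold mice carried METTL3 flox/flox with no Cre named, and were housed in the same cold. The WT RT mice had the same floxed genotype and were untreated, at room temperature. All groups were of the C57BL/6 strain and aged 8 weeks, and footprints were sequenced for the cKO cold and WT cold groups alone. METTL3 catalyses the addition of m6A to mRNA, and the series asks what this mark does when white fat takes on features of brown fat in the cold. Adipoq-Cre is driven by regulatory sequence of Adipoq, which is itself among the 9 genes. It acts in adipocytes, so other cells of the tissue keep Mettl3. The labels name neither the fat depot nor separate animals behind replicates 1 and 2, so the spread behind every p-value is that between these libraries and may be technical.

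Adipoq (adiponectin) and Lep (leptin) are hormones made mainly by adipocytes. Adiponectin raises insulin sensitivity, and leptin reports the size of fat stores to the brain. Retn (resistin) is a hormone of mouse adipocytes, and Apln (apelin) is a peptide hormone that also comes from endothelium. Cfd (adipsin, complement factor D) is the protease that starts amplification in the alternative complement pathway. Rbp4 carries retinol in plasma, and Nampt makes the NAD precursor nicotinamide mononucleotide inside and outside cells. Agt (angiotensinogen) is the precursor of angiotensins, and Angptl4 inhibits lipoprotein lipase, the enzyme that frees fatty acids from circulating triglyceride.

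The input libraries held 3895031 to 8673393 recovered reads and the m6A libraries 4883129 to 6426541, while footprint libraries held no fewer than 1676208 to 2461267. Mettl3 had 3.83 and 1.90 RPKM (reads scaled to transcript length and library depth) in cKO cold input, 5.24 and 3.66 RPKM in WT cold and 10.8 and 9.27 RPKM in WT RT. The cKO cold and WT cold values of Mettl3 overlapped. Ucp1, the uncoupling protein of thermogenic fat, had 76.3 and 10.04 RPKM in cKO cold, 854 and 639 RPKM in WT cold, and 2.13 and 9.91 RPKM in WT RT. The tissue label was borne out by 8 adipocyte markers outside the 9 genes, whose summed input RPKM was 7834 and 8951 in cKO cold, 11090 and 11249 in WT cold, and 4442 and 4762 in WT RT. Markers of other cell types also differed between groups. The 10 macrophage markers summed to 1101 and 525 RPKM in cKO cold, against 139 and 132 RPKM in WT cold and 584 and 645 RPKM in WT RT. The 8 fibroblast and preadipocyte markers summed to 1919 and 865 RPKM in cKO cold, against 505 and 314 RPKM in WT cold and 1556 and 1529 RPKM in WT RT. The 9 T and B cell markers summed to at most 5.02 RPKM in any cold input library, with 2 to 6 of them at 0. In WT RT input they summed to 672 and 625 RPKM, with none at 0. In footprints they summed to 1029 and 339 RPKM in cKO cold and 489 and 343 RPKM in WT cold, with none at 0. Library codes in the labels form different runs for WT RT and for the cold groups, so temperature and code run cannot be told apart. In whole tissue, a change in the number of cells of a type and a change in RNA per cell cannot be told apart, and the part of cell makeup in the results that follow was not tested.

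The promoters of the 5 genes whose input RNA passed the test between cKO cold and WT cold, and of Lep, are shown so that genes that moved together can be set side by side. They are the 250 bases before the start of each gene, read 5′ to 3′ on the gene's strand, from RefSeq on the GRCm38.p6 assembly (mm10). Promoters were matched for 8 of the 9 genes. Capitals mark exact matches, on either strand, to the C/EBP palindrome TTGCGCAA, the CCAAT box (CCAAT), the TATA box (TATAAA) and the GC box (GGGCGG). No match overlapped another. The windows are chr16:23146286-23146535 (plus strand) for Adipoq, chr8:124569707-124569956 (minus strand) for Agt, chr6:29059971-29060220 (plus strand) for Lep, chr8:3655520-3655769 (plus strand) for Retn, chr12:32820085-32820334 (plus strand) for Nampt and chr10:79890603-79890852 (plus strand) for Cfd.
Adipoq: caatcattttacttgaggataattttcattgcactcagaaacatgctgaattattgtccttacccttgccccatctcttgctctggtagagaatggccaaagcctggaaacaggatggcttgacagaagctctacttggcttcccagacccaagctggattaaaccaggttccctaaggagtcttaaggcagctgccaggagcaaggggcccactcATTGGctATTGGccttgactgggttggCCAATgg
Agt: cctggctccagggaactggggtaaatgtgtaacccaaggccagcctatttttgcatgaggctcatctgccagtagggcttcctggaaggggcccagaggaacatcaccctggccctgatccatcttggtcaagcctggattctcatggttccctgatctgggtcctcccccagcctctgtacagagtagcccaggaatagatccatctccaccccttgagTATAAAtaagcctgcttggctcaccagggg
Lep: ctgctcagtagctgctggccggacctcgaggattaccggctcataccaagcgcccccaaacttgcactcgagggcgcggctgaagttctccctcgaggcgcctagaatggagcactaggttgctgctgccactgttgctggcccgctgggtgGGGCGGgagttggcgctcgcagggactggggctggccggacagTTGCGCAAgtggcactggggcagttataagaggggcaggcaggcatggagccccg
Retn: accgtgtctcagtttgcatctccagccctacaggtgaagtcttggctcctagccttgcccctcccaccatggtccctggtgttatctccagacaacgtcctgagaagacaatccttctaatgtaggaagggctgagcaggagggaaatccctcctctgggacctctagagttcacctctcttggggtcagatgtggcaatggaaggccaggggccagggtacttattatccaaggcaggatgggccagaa
Nampt: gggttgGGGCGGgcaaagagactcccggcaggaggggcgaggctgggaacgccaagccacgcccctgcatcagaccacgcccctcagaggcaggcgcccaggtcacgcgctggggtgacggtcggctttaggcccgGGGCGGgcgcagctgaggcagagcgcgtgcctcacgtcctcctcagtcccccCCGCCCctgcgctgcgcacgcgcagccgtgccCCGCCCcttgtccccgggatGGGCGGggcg
Cfd: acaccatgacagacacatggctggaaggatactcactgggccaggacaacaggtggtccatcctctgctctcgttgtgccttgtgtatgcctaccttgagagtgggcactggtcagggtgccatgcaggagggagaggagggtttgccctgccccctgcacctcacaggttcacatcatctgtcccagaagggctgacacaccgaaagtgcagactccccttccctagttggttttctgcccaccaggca
The Lep window holds TTGCGCAA from 55 to 48 bases before the start, a match found in 0.164% of 32851 promoters of that length. Proteins of the C/EBP family are known activators of the Lep promoter. The Adipoq window holds 3 CCAAT boxes, all within 34 bases of the start, and 33.8% of promoters hold at least 1. The Agt window holds TATAAA from 30 to 25 bases before the start (12.4% of promoters). The Nampt window holds 5 GC boxes (32.7% of promoters hold at least 1), and the windows of Retn and Cfd held none of these letters. Retn and Nampt, whose input RNA was highest in WT cold in every library, share none of these matches.

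Among the 9 genes the input levels, per length, spanned a wide range. Cfd stood highest in every group and Apln lowest. Cfd ranked 21 among all genes by mean RPKM in cKO cold, 17 in WT cold and 9 in WT RT, and took 0.110%, 0.184% and 0.369% of the reads in those groups. Adipoq was second in every group and ranked 40 in cKO cold, 54 in WT cold and 49 in WT RT. Apln ranked 7101 in cKO cold, 7882 in WT cold and 11222 in WT RT, on 38 to 119 reads a library. In cKO cold the order below Adipoq was Lep, Rbp4, Retn, Angptl4, Nampt and Agt. There the library ranges of Lep and Rbp4, of Retn and Angptl4, and of Nampt and Agt overlapped. In WT cold the order was Retn, Rbp4, Angptl4, Nampt, Lep and Agt, and the range of every neighbouring pair of these overlapped. In WT RT it was Retn, Angptl4, Rbp4, Lep, Nampt and Agt, and the ranges of Retn, Angptl4 and Rbp4 overlapped in turn.

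**Figure D1:**
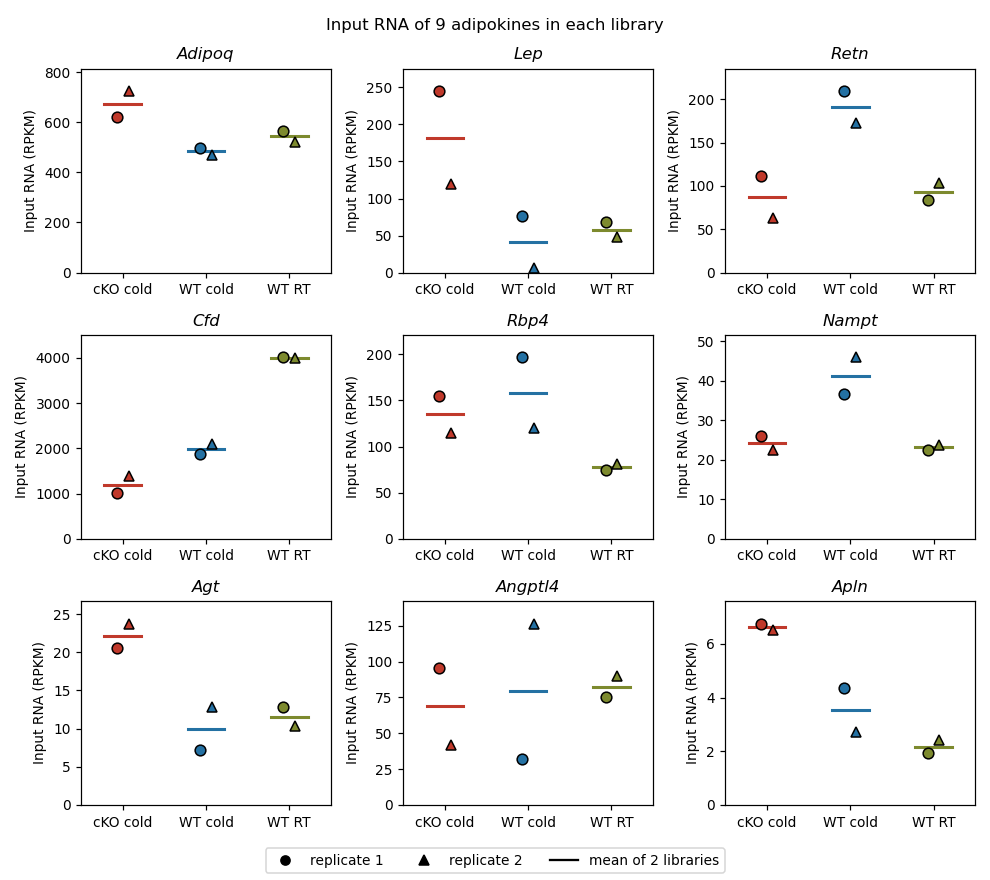
Input RNA in RPKM (vertical axes, from 0) of each adipokine in the cKO cold, WT cold and WT RT libraries, as deposited; circles are replicate 1, triangles replicate 2 and bars the mean of 2 libraries. Retn and Nampt stand highest in WT cold, Cfd stands lowest in cKO cold and highest in WT RT, and the 2 WT cold libraries lie far apart for Lep (76.1 and 5.72 RPKM) and Angptl4 (32.1 and 126 RPKM).

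In the cold, with the Mettl3 cKO genotype against WT, the adipokines moved in both directions. Retn, Nampt and Cfd RNA fell, and Agt and Adipoq RNA rose. Of the 9 genes, 5 passed limma's moderated test (adjusted p under 0.05, Benjamini-Hochberg over all genes), 2 higher and 3 lower in cKO cold, where 26.5% of 12667 tested genes passed, 23.6% higher and 2.92% lower. The median log2 fold change was -0.01 over the 9 genes and 0.40 over all genes tested. Fold changes are of RPKM + 1, with standard errors from 2 libraries a group. The share of all genes whose groups did not overlap was not computed for input RNA. Statements on overlap describe these libraries and are not a test.

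Retn had 112 and 63.3 RPKM in cKO cold, against 209 and 173 RPKM in WT cold, with no overlap. Its log2 fold change was -1.17 ± 0.27 (adjusted p = 0.0233 by limma), that is 0.445 times the WT cold level. Nampt, the NAD-producing enzyme, had 26.1 and 22.4 RPKM in cKO cold, against 36.7 and 45.9 RPKM in WT cold. Every cKO cold library was below every WT cold library, with a log2 fold change of -0.74 ± 0.16 (adjusted p = 0.0202 by limma). Cfd, the complement protease, had 1006 and 1379 RPKM in cKO cold, against 1882 and 2099 RPKM in WT cold. The groups did not overlap, and the log2 fold change was -0.75 ± 0.19 (adjusted p = 0.0317 by limma). Beside these decreases, the summed adipocyte markers were also lower in every cKO cold library than in every WT cold library, with 3 of 8 passing the test as lower and 0 as higher. Their part in the decreases was not tested.

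Agt, the angiotensin precursor, had 20.5 and 23.8 RPKM in cKO cold, against 7.19 and 12.8 RPKM in WT cold. Its groups did not overlap, and its log2 fold change was 1.12 ± 0.27 (adjusted p = 0.0264 by limma), a 2.17-fold higher level. Adipoq, whose regulatory sequence drives the Cre, had 621 and 724 RPKM in cKO cold, against 498 and 471 RPKM in WT cold. It was higher in each cKO cold library, with a log2 fold change of 0.47 ± 0.14 (adjusted p = 0.0458 by limma), close to the 0.40 of the median gene. When the libraries were scaled by the median ratio, which brings the median of all genes to 0.01, the value of Adipoq turned to -0.03 (adjusted p = 0.925) and Agt stood at 0.66 (adjusted p = 0.193). Retn, Nampt and Cfd stayed lower and passed under that scaling, at -1.66, -1.22 and -1.25, and it split all calls into 764 higher and 872 lower, against 2992 and 370 for the values as deposited.

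The other adipokines did not pass the test. Lep had 245 and 119 RPKM in cKO cold, against 76.1 and 5.72 RPKM in WT cold. Its groups did not overlap, but its log2 fold change of 2.92 ± 1.01 had an adjusted p of 0.0721 by limma, with a large spread in WT cold. Apln had 6.76 and 6.52 RPKM in cKO cold, against 4.36 and 2.71 RPKM in WT cold, again without overlap (log2 fold change 0.78 ± 0.24, adjusted p = 0.0563 by limma). Rbp4 had 155 and 115 RPKM in cKO cold, against 197 and 120 RPKM in WT cold. Angptl4 had 95.5 and 42.0 RPKM in cKO cold, against 32.1 and 126 RPKM in WT cold. The ranges of these 2 genes overlapped between the groups, with log2 fold changes of -0.20 ± 0.25 and -0.01 ± 0.63.

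With so few libraries each call rested on particular ones. The call of Adipoq was lost without any 1 of the 6 input libraries (log2 fold change 0.36 to 0.58, adjusted p 0.0503 to 0.131). That of Agt was lost without cKO cold replicate 1 (1.22, adjusted p = 0.0715) or 2 (1.02, adjusted p = 0.0914). That of Retn was lost without WT cold replicate 1 (-1.03, adjusted p = 0.0688) or 2 (-1.30, adjusted p = 0.0567). Nampt lost its call without WT RT replicate 1 or 2, WT cold replicate 2 or cKO cold replicate 2, and ran from -0.90 to -0.58 over all 6 omissions. Cfd kept its call only without cKO cold replicate 2, and ran from -0.98 to -0.53. Lep passed without WT cold replicate 1 (4.68, adjusted p = 0.00708), and so did Apln (1.04, adjusted p = 0.0251).

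In WT mice, cold against room temperature, Retn, Rbp4 and Nampt RNA rose and Cfd RNA fell. This comparison shares the WT cold libraries with the one above, so its values stand beside the earlier ones and give no separate evidence. Of the 9 genes, 3 passed as higher and 1 as lower in WT cold, where 57.7% of all tested genes passed, 6.52% higher and 51.2% lower, and the median gene stood at -0.67. The median over the 9 genes was -0.17. T and B cell markers all passed as lower in WT cold (9 of 9), adipocyte markers passed as higher for 5 of 8, and the part of either in these values was not tested.

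Retn had 209 and 173 RPKM in WT cold, against 83.7 and 103 RPKM in WT RT, without overlap (log2 fold change 1.03 ± 0.27, adjusted p = 0.0159 by limma). Rbp4, the retinol carrier, had 197 and 120 RPKM in WT cold, against 74.9 and 80.9 RPKM in WT RT. The groups did not overlap, and the log2 fold change was 0.97 ± 0.25 (adjusted p = 0.0155 by limma). Nampt had 36.7 and 45.9 RPKM in WT cold, against 22.4 and 23.9 RPKM in WT RT, also without overlap (0.80 ± 0.16, adjusted p = 0.0058 by limma). Cfd had 1882 and 2099 RPKM in WT cold, against 4009 and 3991 RPKM in WT RT. It fell to 0.497 times the WT RT level (log2 fold change -1.01 ± 0.19, adjusted p = 0.00488 by limma). With median-ratio scaling Retn, Rbp4 and Nampt stayed higher at 1.77, 1.71 and 1.53, but Cfd was at -0.26 (adjusted p = 0.404), and all calls split into 2392 higher and 2532 lower, against 826 and 6488 as deposited.

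Adipoq and Agt had log2 fold changes of -0.17 ± 0.14 and -0.23 ± 0.27 in WT cold against WT RT, and their groups overlapped for Agt alone. Adipoq turned to 0.58 (adjusted p = 0.0189) with median-ratio scaling, where Agt stood at 0.46. Apln had 4.36 and 2.71 RPKM in WT cold, against 1.93 and 2.40 RPKM in WT RT (0.50 ± 0.24, adjusted p = 0.12 by limma; 1.05 and past the threshold with median-ratio scaling). Lep stood at -1.35 ± 1.01 and Angptl4 at -0.36 ± 0.63, and neither passed. Without WT RT replicate 1 the calls of Retn (0.88, adjusted p = 0.0871), Rbp4 (0.92, adjusted p = 0.0745) and Nampt (0.76, adjusted p = 0.0575) were lost. Rbp4 also lost its call without WT RT replicate 2 (1.02, adjusted p = 0.0512), and Retn without WT cold replicate 1 (0.89, adjusted p = 0.069). Lep passed without WT cold replicate 1 (-3.11, adjusted p = 0.00326), and Apln without WT cold replicate 2 (0.76, adjusted p = 0.0372).

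Set directly against WT RT, cKO cold RNA differed for Cfd, Apln and Agt. Of the 9 genes 3 passed, 2 higher and 1 lower, where 33.1% of all genes passed, 8.38% higher and 24.7% lower. Cfd was lower, at 1006 and 1379 RPKM in cKO cold against 4009 and 3991 RPKM in WT RT (log2 fold change -1.76 ± 0.19, adjusted p = 0.00122 by limma). Its 3 groups did not overlap, with cKO cold lowest. Apln had 6.76 and 6.52 RPKM in cKO cold, against 1.93 and 2.40 RPKM in WT RT (1.28 ± 0.24, adjusted p = 0.00918 by limma). Agt had 20.5 and 23.8 RPKM in cKO cold, against 12.8 and 10.3 RPKM in WT RT (0.89 ± 0.27, adjusted p = 0.0435 by limma). The groups overlapped for neither, but Apln and Agt lost their calls without WT RT replicate 1 (adjusted p = 0.101 and 0.127) or 2 (adjusted p = 0.0626 and 0.226), and Agt also without cKO cold replicate 1 (adjusted p = 0.087) or 2 (adjusted p = 0.16). Retn and Nampt, which were lower in cKO cold than in WT cold, stood at -0.14 ± 0.27 and 0.06 ± 0.16 against WT RT. Rbp4, at 0.77 ± 0.25, just missed the threshold (adjusted p = 0.0545 by limma). With median-ratio scaling, where 28.7% of all genes passed, Rbp4 (1.03, adjusted p = 0.0177) and Adipoq (0.56, adjusted p = 0.0303) passed as higher. Cfd, Apln and Agt kept their calls under that scaling.

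Lep and Angptl4 varied most between libraries of a group. In WT cold, Lep had 2152 reads (76.1 RPKM) in replicate 1 and 83 reads (5.72 RPKM) in replicate 2 of the input, a ratio of 13.3. Angptl4 ran the other way, with 32.1 RPKM in replicate 1 and 126 RPKM in replicate 2. The same replicate 2 was low for Lep and high for Angptl4 in all 3 assays. In the m6A libraries of WT cold, Lep had 83.6 and 3.96 RPKM and Angptl4 had 37.9 and 133 RPKM. In the footprints, Lep had 244 and 17.8 RPKM and Angptl4 had 136 and 386 RPKM. The libraries of the 3 assays that carry the same number deviated in the same direction. In cKO cold, replicate 1 was above replicate 2 for both genes in all 3 assays, and the WT RT inputs were close, at 67.8 and 48.2 RPKM for Lep and 75.3 and 89.6 RPKM for Angptl4.

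**Figure D2:**
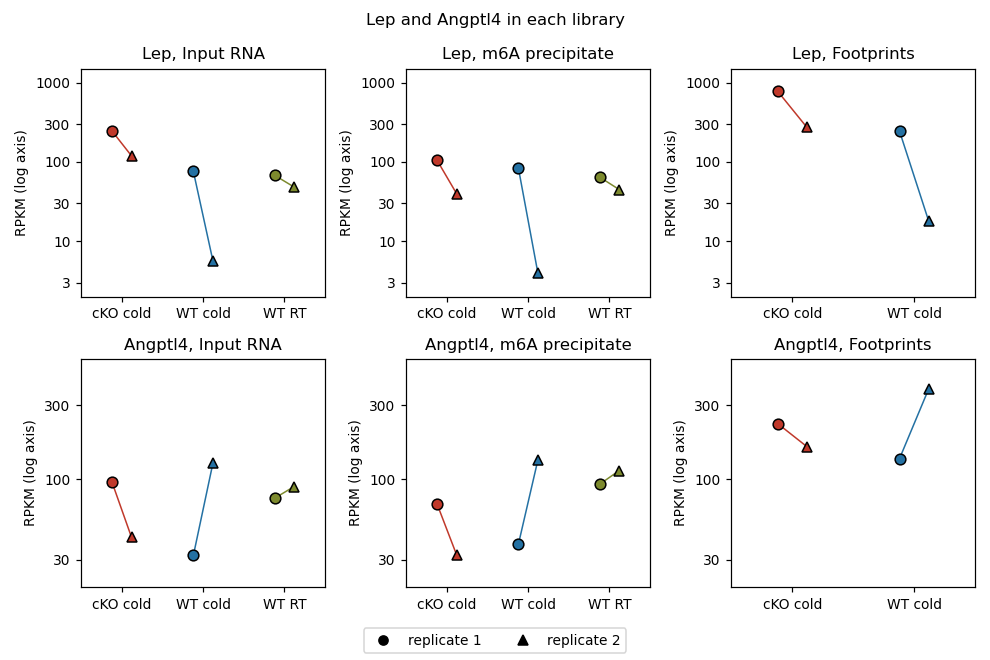
RPKM (log axes) of Lep (upper row) and Angptl4 (lower row) in input, m6A and footprint libraries of cKO cold, WT cold and WT RT; circles are replicate 1, triangles replicate 2, and thin lines join the 2 libraries of a group. In WT cold, replicate 2 is low for Lep (5.72, 3.96 and 17.8 RPKM) and high for Angptl4 (126, 133 and 386 RPKM) in each assay.

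The antibody recovered the 9 RNAs to very different extents. Adipoq, Agt, Angptl4, Lep and Retn were recovered less in both cKO cold pairs than in any WT pair. The measure is the m6A RPKM over the input RPKM of the same condition and number. Both are shares of a library's reads with no spike-in, so a ratio of 1 means recovery like that of the average read, not a count of methyl groups. Adipoq had ratios of 0.834 and 0.666 in cKO cold, 1.59 and 1.68 in WT cold, and 1.52 and 1.72 in WT RT. Agt had ratios of 0.983 and 0.927 in cKO cold, 1.5 and 1.51 in WT cold, and 1.58 and 1.59 in WT RT. Angptl4 had ratios of 0.722 and 0.771 in cKO cold, 1.18 and 1.05 in WT cold, and 1.23 and 1.27 in WT RT. These 3 genes alone among the 9 were above 1 in every WT pair, and they were below 1 in both cKO cold pairs. The share of all genes that crossed 1 in this way was not computed. Lep had ratios of 0.427 and 0.335 in cKO cold, 1.10 and 0.693 in WT cold, and 0.948 and 0.931 in WT RT, again with cKO cold below both WT conditions. Against WT cold alone, 35.4% of 13062 genes were wholly lower in cKO cold (computed on RPKM + 1). The share of all genes below both WT conditions was not computed.

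The ratios of the other genes were below 1 in every pair. Rbp4 had the lowest, at 0.187 and 0.254 in cKO cold, 0.226 and 0.284 in WT cold, and 0.201 and 0.157 in WT RT. Nampt had 0.441 and 0.483 in cKO cold, 0.387 and 0.314 in WT cold, and 0.403 and 0.417 in WT RT. Cfd had 0.593 and 0.570 in cKO cold, 0.654 and 0.646 in WT cold, and 0.563 and 0.599 in WT RT. For these 3 genes the cKO cold and WT RT values were close or overlapped. Retn had 0.388 and 0.423 in cKO cold, 0.441 and 0.512 in WT cold, and 0.681 and 0.875 in WT RT, with WT RT highest and cKO cold lowest. Apln, with few reads, ran from 0.371 to 0.840 and the 3 conditions overlapped.

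**Figure D3:**
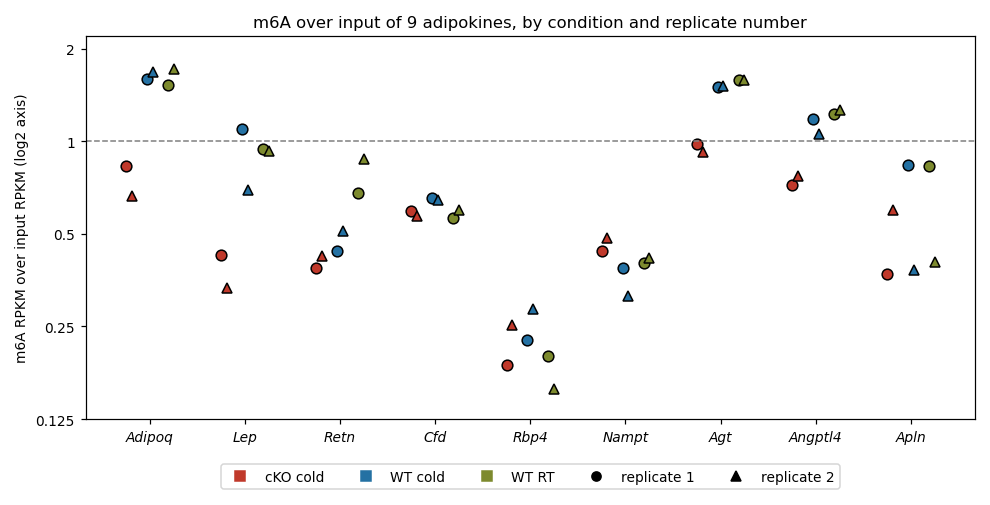
m6A RPKM over input RPKM (log2 axis) of each adipokine, for each condition and replicate number; the dashed line marks a ratio of 1. Adipoq, Agt and Angptl4 lie above 1 in all WT cold and WT RT pairs and below 1 in cKO cold. Lep (0.427 and 0.335) and Retn (0.388 and 0.423) are also lowest in cKO cold.

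In the fit without pairing, m6A over input passed for 5 of the 9 genes in cKO cold, 0 as higher and 5 as lower, where 46.6% of 13062 genes passed, 11.4% higher and 35.2% lower. In WT cold it passed for 5 genes, 1 higher and 4 lower (background 39.3%, with 13.7% higher and 25.6% lower). In WT RT it passed for 4 genes, 1 higher and 3 lower (background 50.6%, with 16% higher and 34.6% lower). Adipoq passed in every condition, but as lower in cKO cold, at -0.42 ± 0.13 (adjusted p = 0.0186 by limma), and as higher in WT cold, at 0.71 ± 0.13, and in WT RT, at 0.69 ± 0.13. With median-ratio scaling Adipoq missed the threshold in cKO cold, at -0.34 (adjusted p = 0.0597). Rbp4, Nampt and Cfd passed as lower in all 3 conditions, with Rbp4 at -2.16 ± 0.23 in cKO cold, -1.95 ± 0.23 in WT cold and -2.41 ± 0.23 in WT RT. Retn passed as lower in cKO cold (-1.28 ± 0.31) and WT cold (-1.07 ± 0.31). With input and m6A libraries of the same number paired as blocks, 8 of 9 genes passed in cKO cold, all lower (background 58.4%, with 16.1% higher and 42.2% lower), with Lep, Angptl4 and Apln added. In WT cold 6 passed, 2 higher and 4 lower (background 51.3%, with 19.4% higher and 31.9% lower), with Agt added as higher, at 0.54 ± 0.10 (adjusted p = 0.0020). In WT RT 7 passed, 3 higher and 4 lower (background 61.9%, with 21.3% higher and 40.6% lower), with Agt (0.62 ± 0.10) and Angptl4 (0.32 ± 0.08) added as higher and Retn as lower. Without the pairing, single libraries decided some calls, those of Adipoq in cKO cold among them, at -0.31 without cKO cold input replicate 2 (adjusted p = 0.114) and -0.37 without cKO cold m6A replicate 2 (adjusted p = 0.0895). In cKO cold, Cfd lost its call without input replicate 2 (-0.55) or m6A replicate 1 (-0.58), and Retn without input replicate 1 (-0.87) or m6A replicate 2 (-0.94). In WT cold, Cfd lost its call without any 1 of the 4 libraries (-0.70 to -0.54), and Retn without input replicate 1 (-0.93), m6A replicate 1 (-1.10) or m6A replicate 2 (-1.03).

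The difference in recovery was tested as the change of m6A over input, cKO cold over WT cold. Without pairing, 0 of the 9 genes and 0 of 13062 genes passed limma's test, while 1 of the 9 and 1311 of all genes had an unadjusted p under 0.05. That gene was Adipoq, at -1.13 ± 0.18 (adjusted p = 0.0885). With the pairs as blocks 3 of the 9 passed, all lower in cKO cold, where 3.1% of all genes passed, 3.04% lower and 0.0612% higher. Adipoq stood at -1.13 ± 0.13 (adjusted p = 0.00933), Lep at -1.24 ± 0.19 (adjusted p = 0.0188) and Angptl4 at -0.57 ± 0.11 (adjusted p = 0.0357). Agt, at -0.61 ± 0.14, did not pass (adjusted p = 0.0604), nor did the other 5. The median was -0.35 over the 9 genes and -0.14 over all genes. It was -0.40 over 20 adipocyte markers other than adipokines, and 0.04 over 23 other secreted adipose proteins. With blocks and median-ratio scaling, Adipoq passed at -0.96 (adjusted p = 0.026), while Lep (-1.06, adjusted p = 0.0706) and Angptl4 (-0.40, adjusted p = 0.144) did not.

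By pair, 6 of the 9 genes had both cKO cold values of m6A over input below both WT cold values and 1, Nampt, had both above, where 35.4% of genes were wholly lower and 11% wholly higher (computed on RPKM + 1). Leaving out a pair from the blocked fit moved the calls. Adipoq kept its call without cKO cold pair 1 (-1.29, adjusted p = 0.0103) or 2 (-0.97, adjusted p = 0.0403). It lost it without WT cold pair 1 (-1.17, adjusted p = 0.0562) or 2 (-1.09, adjusted p = 0.088) and without WT RT pair 1 (adjusted p = 0.0613) or 2 (adjusted p = 0.0696). In each of those 4 omissions no gene of the matrix passed. Lep passed only without cKO cold pair 1 (-1.40, adjusted p = 0.037), and Angptl4 passed in none of the 6 omissions, at adjusted p from 0.071 to 0.129.

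Between WT cold and WT RT, m6A over input passed for 0 of the 9 genes, without pairing (8 genes, 0.0612% of all, passed) and with it (270 genes, 2.07%), on the values as deposited. By limma 0 of the 9 had an unadjusted p under 0.05 without pairing and 2 with it. Adipoq, at 0.02 ± 0.13 with pairs as blocks, was near 0. By pair, 4 of the 9 were wholly lower in WT cold and 2 wholly higher, where 18.4% of genes were wholly lower and 36.7% wholly higher. The value farthest from 0 was that of Retn, at -0.70 ± 0.14 (adjusted p = 0.053 with pairs as blocks), lower in WT cold. With blocks and median-ratio scaling Retn passed, at -0.78 (adjusted p = 0.0449), where 0.964% of all genes passed, and it also passed with blocks without cKO cold pair 2 (-0.70, adjusted p = 0.0496).

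Footprints of the adipokines, cKO cold against WT cold, passed the test for 0 of the 8 genes with a value, where 7.15% of 12763 genes passed, 5.61% higher and 1.54% lower. By limma 3 of the 8 had an unadjusted p under 0.05. Nampt had 152 and 148 RPKM of footprints in cKO cold, against 237 and 273 RPKM in WT cold. It did not overlap between groups, at -0.76 ± 0.22 (adjusted p = 0.0654), and it passed with median-ratio scaling, at -1.25 (adjusted p = 0.0265), where 3.92% of all genes passed. Retn had 767 and 991 RPKM in cKO cold, against 1417 and 1945 RPKM in WT cold, also without overlap (-0.93 ± 0.32, adjusted p = 0.102). Agt had 19.1 and 43.2 RPKM in cKO cold, against 9.41 and 16.7 RPKM in WT cold, without overlap (1.14 ± 0.43, adjusted p = 0.12). Footprint and input values are on different length scales, so footprints are set only against each other.

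Adipoq had 1597 and 3355 RPKM of footprints in cKO cold, against 1478 and 1627 RPKM in WT cold, and its groups overlapped. Lep had 779 and 273 RPKM in cKO cold, against 244 and 17.8 RPKM in WT cold, with a log2 fold change of 2.77 ± 1.30. Cfd had 1904 and 2897 RPKM in cKO cold, against 3868 and 3276 RPKM in WT cold. Lep and Cfd did not overlap between groups, but neither passed (adjusted p = 0.185 and 0.261). For footprints, too, the share of all genes without overlap was not computed, so lack of overlap only describes these libraries. Rbp4 had 427 and 554 RPKM in cKO cold, against 663 and 238 RPKM in WT cold, and overlapped, as did Angptl4 at 229 and 162 RPKM in cKO cold against 136 and 386 RPKM in WT cold. Apln was recovered as 1 and 2 reads in cKO cold, against 1 and 0 reads in WT cold, so no fold change is given. Footprints over input, taken as translational efficiency, differed for 0 of 8 genes and for 0 of all genes by limma. Of all genes 459, and 0 of the 8, had an unadjusted p under 0.05. The changes ran from -0.23 (Angptl4) to 0.49 (Rbp4) on the log2 scale, with standard errors of 0.31 to 1.84. Deviations of input and footprint libraries with the same number correlated at 0.337 in cKO cold and 0.333 in WT cold, and with these libraries paired as blocks the standard errors were 0.27 to 0.45. With blocks, too, 0 of the 8 and 0 of all genes passed by limma, and 761 of all genes had an unadjusted p under 0.05. The 9 T and B cell markers summed to at most 5.02 RPKM in cold input but to 339 to 1029 RPKM in cold footprints. Whether the input and footprint libraries sampled the same mix of cells was not tested.

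**Figure D4:**
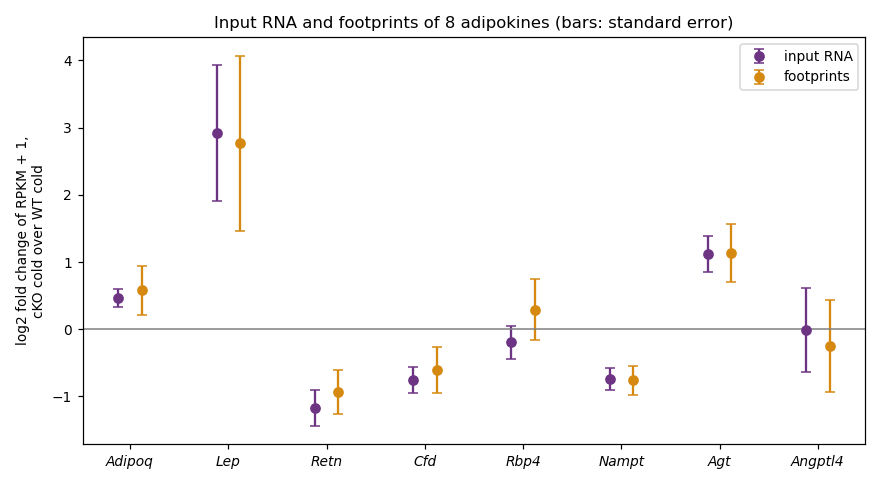
Log2 fold change of RPKM + 1, cKO cold over WT cold, in input RNA (purple) and footprints (orange) for 8 adipokines; bars are standard errors from 2 libraries a group. Retn, Cfd and Nampt are below 0 and Agt and Lep above 0 in both assays, while Adipoq, at 0.47 in input as deposited, was at -0.03 with median-ratio scaling.

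Partners of the adipokines, from lists of receptors, enzymes and pathway members, were set beside them in the input RNA. Because the median gene shifted in both comparisons, each count is followed by that with median-ratio scaling. Of all genes, 23.6% passed as higher and 2.92% as lower in cKO cold against WT cold. In WT cold against WT RT, 6.52% passed as higher and 51.2% as lower. With scaling, 13% of 12548 genes passed in cKO cold against WT cold, 764 as higher and 872 as lower. In WT cold against WT RT 39.2% passed with scaling, 2392 as higher and 2532 as lower. These shares and counts of all genes apply to every list below. Of 10 adipokine receptors tested, 2 passed as higher and 0 as lower in cKO cold against WT cold (1 and 1 with scaling; list median 0.50, all genes 0.40). C3ar1, the receptor for complement C3a, stood at 2.58 ± 0.36 (adjusted p = 0.0069 by limma). In WT cold against WT RT, 1 passed as higher and 3 as lower (4 and 1 with scaling). Lepr, the leptin receptor, had 0.587 and 0.979 RPKM in WT cold, against 7.07 and 8.74 RPKM in WT RT (-2.32 ± 0.27, adjusted p = 0.00073 by limma). Adipor2, an adiponectin receptor, was higher in WT cold, at 0.67 ± 0.18. T and B cell markers were likewise near 0 RPKM in WT cold input, and their part in the Lepr value was not tested.

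Around Agt, 6 of 9 other renin-angiotensin genes passed as higher and 0 as lower in cKO cold against WT cold (2 and 1 with scaling; list median 0.86). Anpep, an aminopeptidase that trims angiotensins, had 65.4 and 26.5 RPKM in cKO cold, against 6.80 and 6.80 RPKM in WT cold. It rose by 2.45 ± 0.37 on the log2 scale (adjusted p = 0.0081 by limma). Ace, the angiotensin-converting enzyme, rose by 1.34 ± 0.33 and had 65.5 and 31.6 RPKM in cKO cold, against 19.5 and 15.5 RPKM in WT cold. For both, cKO cold replicate 1 was above replicate 2, as were the summed macrophage and fibroblast markers, and the part of those cells was not tested. In WT cold against WT RT 3 passed as higher and 6 as lower (3 and 1 with scaling), with Anpep at -1.27 ± 0.37 and Ace at -1.17 ± 0.33.

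Around Cfd, 4 of 7 alternative complement genes passed as higher and 0 as lower in cKO cold against WT cold (1 and 0 with scaling). Of all genes 23.6% passed as higher there, while Cfd itself was lower. C3, which the Cfd-activated convertase cleaves, had 388 and 316 RPKM in cKO cold, against 191 and 184 RPKM in WT cold (0.90 ± 0.14, adjusted p = 0.0085 by limma). Cfp, properdin, which stabilises that convertase and is made by myeloid cells, rose by 2.02 ± 0.21, beside macrophage markers that passed as higher for 7 of 9 tested. For WT cold over WT RT 0 passed as higher and 5 as lower (0 and 3 with scaling), where 51.2% of all genes passed as lower. Cfd was lower there as deposited, but stood at -0.26 (adjusted p = 0.404 by limma) with scaling. Cd55, an inhibitor of the convertase, stood at -2.71 ± 0.20, C3 at -1.61 ± 0.14 and Cfp at -2.13 ± 0.21.

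Of 14 genes of NAD salvage and use tested around Nampt, 1 passed as higher and 0 as lower in cKO cold (0 and 2 with scaling). It was Nnmt, which methylates nicotinamide, at 0.95 ± 0.21 (adjusted p = 0.0221 by limma), while Nampt fell. In WT cold against WT RT 0 passed as higher and 6 as lower (5 and 3 with scaling), where 51.2% of all genes passed as lower. Among the 6 were Cd38 (-1.78 ± 0.19) and Bst1 (-2.30 ± 0.26), enzymes that consume NAD, while Nampt rose. T and B cell markers were lower in WT cold as well, and their part in the Cd38 and Bst1 values was not tested. Around Angptl4, a list of lipoprotein lipase and genes set beside it had 10 members tested. Of these, 2 passed as higher and 0 as lower in cKO cold (0 and 1 with scaling). They were Sel1l, which helps the lipase mature in the endoplasmic reticulum, and Glmp, a lysosomal membrane protein. For WT cold over WT RT 3 passed as higher and 1 as lower (4 and 0 with scaling). Lpl, the target of Angptl4, stood at 1.04 ± 0.22 (adjusted p = 0.0069 by limma), Gpihbp1, its anchor on capillaries, at 0.59 ± 0.19 and Vldlr, a lipoprotein receptor, at 0.97 ± 0.15.

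Around Rbp4, 3 of 9 genes of retinol handling passed as higher and 1 as lower in cKO cold (1 and 0 with scaling). The enzymes Aldh1a1 (0.93 ± 0.26) and Aldh1a3 (1.38 ± 0.39), which make retinoic acid, and its receptor Rara (1.44 ± 0.27) rose. Rbp7, an intracellular retinol-binding protein, had 13.6 and 6.22 RPKM in cKO cold, against 23.8 and 97.9 RPKM in WT cold (-2.27 ± 0.68, adjusted p = 0.0483 by limma). In WT cold against WT RT 2 passed as higher and 3 as lower (2 and 1 with scaling), with Rbp7 at 2.46 ± 0.68 and Rara at -2.60 ± 0.27. Of 13 genes for folding and secretion of adiponectin in the endoplasmic reticulum, 9 passed as higher and 0 as lower in cKO cold against WT cold (6 and 1 with scaling; list median 0.97, all genes 0.40). P4hb, a protein disulfide isomerase, had 149 and 170 RPKM in cKO cold, against 62.3 and 57.7 RPKM in WT cold (1.39 ± 0.12, adjusted p = 0.0037 by limma). Hspa5, the chaperone BiP, stood at 1.38 ± 0.16 and Plod1, a lysyl hydroxylase, at 1.44 ± 0.17, and in footprints 5 of the 13 genes passed as higher and 0 as lower (2 and 0 with scaling), where 5.61% of all genes passed as higher. For WT cold over WT RT 0 passed as higher and 9 as lower (2 and 1 with scaling). These genes act on many secreted proteins and are not particular to adiponectin or to adipocytes.

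Of 12 transcription factors known to act on adipokine genes, 5 passed as higher and 1 as lower in cKO cold against WT cold (0 and 1 with scaling). Ppara, the lipid-sensing receptor that activates Angptl4, had 1.69 and 3.61 RPKM in cKO cold, against 10.9 and 28.8 RPKM in WT cold (-2.42 ± 0.46, adjusted p = 0.0132 by limma). Rxra, its partner receptor, rose by 0.92 ± 0.13 and Nr1h3 by 0.73 ± 0.13. In WT cold against WT RT 2 passed as higher and 5 as lower (3 and 2 with scaling), where 51.2% of all genes passed as lower. Ppara stood at 2.01 ± 0.46. Of 23 other secreted adipose proteins, 10 passed as higher and 2 as lower in cKO cold (5 and 3 with scaling). Metrnl, a hormone of muscle and fat, had 22.6 and 18.5 RPKM in cKO cold, against 4.03 and 4.17 RPKM in WT cold (2.07 ± 0.18, adjusted p = 0.0037 by limma). Nrg4, a factor released by brown fat, had 11.04 and 24.0 RPKM in cKO cold, against 41.5 and 71.1 RPKM in WT cold (-1.67 ± 0.38, adjusted p = 0.0225 by limma). For WT cold over WT RT 3 of the 23 passed as higher and 11 as lower (4 and 4 with scaling), where 51.2% of all genes passed as lower. Of 20 adipocyte markers other than adipokines, 2 passed as higher and 7 as lower in cKO cold (0 and 10 with scaling), and 13 as higher and 1 as lower in WT cold against WT RT (15 and 0 with scaling).

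The genes with the profiles most like each adipokine were sought by Pearson's r of log2(RPKM + 1) over the 16 libraries, with each assay centred on its own mean, among 9211 genes. The libraries share assay and condition, so r describes them and carries no test. The closest match was that of Angptl4 with Txnip (r = 0.974), followed by Arrdc3 (0.954). Nampt was closest to Ahcyl1 (0.947) and Slc4a4 (0.941), and Rbp4 to Afap1 (0.939) and Ak3 (0.931). Cfd was closest to Mef2d (0.938) and Zfyve26 (0.930), and Adipoq to Tbc1d24 (0.935) and BC003965 (0.921). Apln was closest to Capn2 (0.931) and C130074G19Rik (0.926), Lep to Kank2 (0.927) and Nhsl2 (0.921), and Agt to Jdp2 (0.918) and Nnmt (0.911). Retn had the weakest matches, Ndufc2 (0.902) and Fmo1 (0.900). None of the 9 adipokines was among the 2 closest genes of another.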

How the data were processed

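The matrix of the authors holds RPKM values (deposited as reads scaled to transcript length and library depth) of 17883 genes in 16 libraries, and all value columns were used (0 left out). HISAT2 and mm10 are named per the submitters' processing notes, without versions, and the counter, annotation and scaling are not given in the sources used here. Adipokines were matched by gene name. The members, gene lists and tests were chosen with earlier results of these data known.

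Each value is a read count scaled by a library and a gene constant, and reads were recovered by a search for these constants. All 17883 genes (100%) came out whole within 0.001 read plus 3e-08 of the reads. Footprint reads are known up to a common factor and their totals are lower bounds. Read floors of 3 cover counting error only. Samples were grouped by title.

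The test was limma 3.58.1 (R 4.3.3; lmFit and eBayes with trend) on log2(RPKM + 1), two-sided, over genes that reached 1 RPKM in 2 or more libraries fitted, in fits of 6 input libraries, 12 input and m6A libraries, or 8 cold input and footprint libraries. Benjamini-Hochberg adjustment covered all genes tested, and the threshold was 0.05. The added 1 RPKM understates changes of low genes. Changes of m6A or footprints over input were interaction terms. The method was tested on simulated data. Python 3.11.15, pandas 2.3.3, numpy 2.4.6 and matplotlib 3.10.9 served for tables and figures.

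Replicate numbers were checked for pairing over 8464 genes. Deviations from group means of input and m6A libraries with the same number correlated at 0.484 in cKO cold, 0.656 in WT cold and 0.305 in WT RT, so the numbers were taken, on this evidence alone, to pair input with m6A within a condition. The blocked values stand beside those results. Across conditions correlations ran from -0.099 to 0.078, and no pairing was assumed.

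Named in the text are all 9 adipokines, up to 4 genes of largest change among those called in each list, Ucp1 and Mettl3, and the 2 genes most like each adipokine. Alternatives tried were a pseudocount of 0.1, no filter, median-ratio or quantile scaling, scaling without Lars2, Gm20594 and mitochondrial mRNAs, 1 fit of all 16 libraries, replicate blocks and leaving out each library. Blocked fits with median-ratio scaling or without a pair were chosen after seeing the data.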

Additional observations from a re-analysis of the deposited data

Results flagged for a closer look

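The difference of m6A over input between cKO cold and WT cold passed a test of the difference itself, with input and m6A libraries of a number paired, for 3 adipokines, where 3.1% of all genes passed. The log2 change was -1.13 for Adipoq, -1.24 for Lep and -0.57 for Angptl4. Each of these genes was lower in both cKO cold pairs than in both WT cold pairs, as were 35.4% of all genes. Without pairing none of the 3 passed (adjusted p = 0.0885, 0.891 and 0.913). With pairing and median-ratio scaling Adipoq passed (adjusted p = 0.026), while Lep (adjusted p = 0.0706) and Angptl4 (adjusted p = 0.144) did not. The m6A and input values are shares of reads, so a lower ratio cannot be told apart from a higher ratio of other RNAs.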

How the results depend on the processing

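Each value rests on 2 libraries a group, with 2 to 8 residual degrees of freedom behind the counts below. A percentage beside a count is the share of all genes that passed in the same fit. Over all alternatives for single genes, in input RNA, footprints, the change of m6A over input in the cold and other values called with or without blocks, 357 of the called values kept their call and direction, 85 lost the call and 1 turned, while 37 uncalled values passed and 38 turned. In cKO cold against WT cold input, where 5 adipokines passed, 1 passed with no filter on low values (14.5% of all genes), 3 with median-ratio scaling (13%), 2 with quantile scaling (11.2%), 2 in the fit of all 16 libraries (22.1%) and 1 to 4 when a library was left out. In WT cold against WT RT input (4), 1 to 5 passed when a library was left out. In cKO cold against WT RT input (3), 5 passed with median-ratio scaling (28.7%), 1 in the fit of all 16 libraries (28.7%) and 1 to 5 when a library was left out. For m6A over input, leaving out a library gave 3 to 6 in cKO cold (5) and 3 to 5 in WT cold (5), where the fit of all 16 libraries gave 3 (30%). For footprints (0, with 7.15% of all genes), Nampt passed with median-ratio scaling (3.92%) and with quantile scaling (3.41%, -1.07, adjusted p = 0.0464), and 3 genes, Nampt, Retn and Agt, in the fit of all 16 libraries (28.1%). The cause of these shifts was not tested.

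With a replicate block that pairs libraries, 8 adipokines passed for m6A over input in cKO cold and 7 in WT RT, and 3 for its change between cKO cold and WT cold. For footprints a replicate block by number gave 2 (Lep, adjusted p = 0.0318, and Agt, adjusted p = 0.0385; 10.5% of all genes), and for cKO cold against WT cold input it gave 5 (25.2%), with Lep (adjusted p = 0.0248) in and Adipoq (adjusted p = 0.0693) out. Numbers across conditions share no more than a number.

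Directions turned as follows, mostly in values that missed the threshold. Between WT cold and WT RT input, Adipoq went to 0.58, Agt to 0.46 and Angptl4 to 0.38 with median-ratio scaling, Agt to 0.52 with quantile scaling, and Adipoq to 0.086 when scaled without Lars2, Gm20594 and mitochondrial mRNAs. In cKO cold against WT cold input, Adipoq went to -0.026 with median-ratio scaling. That scaling also turned Retn in cKO cold against WT RT input (0.11), Rbp4 in footprints (-0.20) and Cfd in the change of m6A over input, cKO cold over WT cold (0.013, with or without blocks). Leaving out a library gave, in WT cold against WT RT input, -0.61 to 0.15 for Agt, -1.33 to 0.62 for Angptl4 and -3.11 to 0.41 for Lep, and in cKO cold against WT cold input -0.55 to 0.16 for Rbp4 and -0.98 to 0.96 for Angptl4. In cKO cold against WT RT input it gave -0.54 to 0.26 for Retn, -0.044 to 0.17 for Nampt and -0.95 to 0.21 for Angptl4, and in footprints -0.45 to 1.03 for Rbp4 and -0.99 to 0.50 for Angptl4. It gave -0.997 to 0.17 for m6A over input of Angptl4 in cKO cold, and for the unpaired change of m6A over input in cKO cold against WT cold -1.54 to 0.40 for Angptl4, -3.28 to 0.81 for Lep, -0.62 to 0.19 for Retn, -0.39 to 0.068 for Cfd, -0.56 to 0.15 for Rbp4 and -0.95 to 0.25 for Apln. With blocks, Rbp4 ran from -0.42 to 0.011 when a pair was left out. Among uncalled values not listed here, signs turned under at least 1 alternative for 8 adipokines in footprints over input and for 6 in the unpaired change of m6A over input between WT cold and WT RT, and 0 of the turned values passed. In m6A over input within a condition signs turned for 2 adipokines in cKO cold (Angptl4 and Agt), 3 in WT cold and 1 in WT RT.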
